A study of Mus musculus with 2 samples.

Results

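The enzymes of the pentose phosphate pathway and the cytosolic NADP-linked enzymes Me1 and Idh1 were taken by gene name, as every probe set of the array whose only gene symbol was G6pdx, Pgls, Pgd, Rpia, Rpe, Tkt, Taldo1, Me1 or Idh1. Of these 9 genes, 8 were analysed, with 17 probe sets, out of 18193 genes in all, and G6pdx was not analysed here. Expression was measured on 2 Affymetrix mouse arrays, 1 per group, in the murine macrophage line RAW264.7. One group was cultured for 24 h with GW3965, a synthetic agonist of the liver X receptors (LXRs), at 1 µM and LG268, an agonist of their partners the retinoid X receptors (RXRs), at 100 nM. The other was cultured for 24 h with the solvent DMSO. Cells of both groups stably carried murine LXRα introduced by chemical transfection, so the DMSO array is no measurement of the parental line. The sources used here do not say whether the line was 1 clone or a pool, or which promoter drove the transgene. The ligands were given together, so neither was measured alone. With 1 array per group no test between groups was possible, and all ratios below describe these 2 arrays.

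The pentose phosphate pathway branches from glycolysis at glucose 6-phosphate. Its oxidative branch yields NADPH and ribulose 5-phosphate, and its non-oxidative branch interconverts pentose phosphates with glycolytic intermediates. Cytosolic malic enzyme and isocitrate dehydrogenase supply NADPH outside the pathway. NADPH is the reductant for fatty acid and sterol synthesis, for glutathione and thioredoxin recycling, and for the phagocyte oxidase of macrophages. LXRs are sterol-activated nuclear receptors that pair with RXRs and raise lipogenic transcription in part through Srebf1.

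The sequence before the gene start is shown for Idh1 and Me1, the members with the largest ratios, and for Tkt, a member with a small ratio. Each run holds the 250 bases before an annotated start, read 5′ to 3′ on the strand of the gene, from RefSeq on build GRCm38.p6. There were 11 annotated starts for the 8 analysed genes, and Idh1 and Me1 each had an outer and an inner one. The inner window of Me1 is not shown and held 0 matches to the 5 motifs named next. Capitals mark matches, on either strand, to any of 5 motifs searched: the GC box GGGCGG, the sterol regulatory element core CACCCCAC, the antioxidant response element core TGACNNNGC, the E-box CACGTG and the nuclear receptor half-site AGGTCA.
Idh1 outer start, chr1:65186480-65186729, minus strand: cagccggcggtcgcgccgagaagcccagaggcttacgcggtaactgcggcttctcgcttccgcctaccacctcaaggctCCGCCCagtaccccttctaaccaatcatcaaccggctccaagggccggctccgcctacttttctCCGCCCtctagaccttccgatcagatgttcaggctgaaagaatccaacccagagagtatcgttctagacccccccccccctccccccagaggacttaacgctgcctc
Idh1 inner start, chr1:65179143-65179392, minus strand: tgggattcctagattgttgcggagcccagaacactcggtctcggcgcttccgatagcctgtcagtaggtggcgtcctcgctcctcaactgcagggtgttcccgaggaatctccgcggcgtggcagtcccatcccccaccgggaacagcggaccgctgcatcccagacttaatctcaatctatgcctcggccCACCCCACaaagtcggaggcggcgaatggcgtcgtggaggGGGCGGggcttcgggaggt
Me1 outer start, chr9:86695915-86696164, minus strand: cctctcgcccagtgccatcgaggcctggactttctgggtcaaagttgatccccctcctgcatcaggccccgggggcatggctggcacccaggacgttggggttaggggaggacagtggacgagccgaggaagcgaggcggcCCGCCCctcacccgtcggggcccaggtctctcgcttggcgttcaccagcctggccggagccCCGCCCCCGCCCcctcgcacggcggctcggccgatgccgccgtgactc
Tkt start, chr14:30548881-30549130, plus strand: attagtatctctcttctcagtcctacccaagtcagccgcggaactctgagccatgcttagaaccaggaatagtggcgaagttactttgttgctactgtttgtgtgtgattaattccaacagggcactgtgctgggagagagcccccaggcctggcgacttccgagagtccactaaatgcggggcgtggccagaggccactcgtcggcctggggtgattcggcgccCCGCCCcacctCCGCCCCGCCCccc

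The GC box, a site of Sp-family factors common in promoters of broadly expressed genes, was found before at least 1 start of all 8 genes and in 9 of their 11 windows, while 32.7% of all 32851 windows of the same length held it. In Tkt, 3 copies lay within 25 bases of the start and the inner pair overlapped by 1 base. The sterol regulatory element core was found at the inner start of Idh1, beginning 59 bases before it, and at an inner start of Pgd, beginning 146 bases before it, while 2.58% of all windows held it. Windows of the members held 0 matches to the antioxidant response element core, the E-box or the nuclear receptor half-site, which 10.2%, 6.02% and 14.0% of all windows held. A match describes these letters only, and the arrays do not show which start was used.

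Each array gave a MAS5 signal for 45101 probe sets, scaled to a 2% trimmed mean of 2500, with a median of 272.1 on the ligand array and 282.5 on the DMSO array. Signals below 276.4, the median over both arrays, were raised to that floor, and the 11077 genes above it on at least 1 array are called measured. Macrophage markers were measured for 12 of 12 genes of the list, and 2 of them passed 1.5-fold upward, Mpeg1 at 2.03-fold and Fcgr1 at 1.53-fold by the brighter of its 2 probe sets (log2 ratios of 0.61 and 0.20). Above the floor on at least 1 array were 1 of 7 lymphoid, 3 of 7 granulocyte and 0 of 9 fibroblast and epithelial markers on the array. The lymphoid one was Cd8a, with 181.8 on the ligand array (below the floor) and 411.1 on the DMSO array. The granulocyte markers with the largest log2 ratios were Elane, with 334.2 on the ligand array and 200.4 on the DMSO array (below the floor), and Camp, with 68.1 on the ligand array (below the floor) and 328.5 on the DMSO array. Nr1h3, which encodes LXRα, and the known LXR targets Abca1, Abcg1, Srebf1, Apoe and Mylip were higher with the ligands. By their brightest probe sets they were 1.77-fold to 29.0-fold higher. The 1.77-fold was that of Nr1h3, and whether its probe set also reads the LXRα transgene was not tested. The 29.0-fold was that of Apoe, whose DMSO signal of 298.6 was just above the floor. The 3 probe sets of Abca1 ranged from 4.76 to 5.52 on the log2 scale. Error was estimated from how far different probe sets of the same gene disagreed, and is given as an SD of the log2 ratio for 1 probe set. With 4866 pairs of probe sets in 4 bins of signal, it was 0.17 in the brightest bin and 0.40 in the dimmest. Pairs were binned by the signal of their dimmer probe set, and each member probe set took the SD of the bin that held its own signal. This error holds no variation between cultures. In a culture measured in bulk, fewer expressing cells and less RNA per cell cannot be told apart.

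Cells given the ligands had higher signals for both NADPH-producing enzymes outside the pathway, Idh1 and Me1, and, by the brightest probe set of each gene, smaller differences for the pathway enzymes. Idh1 was 1.66-fold higher by its brightest probe set, Me1 1.48-fold and Rpia 1.39-fold, while Rpe, Tkt and Pgd lay within 1.1-fold by theirs. Me1 and Rpia, at log2 ratios of 0.57 and 0.47, were closer than the SD of 0.17 for 1 such probe set. A dimmer probe set of Pgd was also at 0.57, and G6pdx was not analysed. The arrays thus do not separate the enzymes outside the pathway from all of those within it. A gene was represented by its brightest probe set. By this choice 7 of 8 measured members had a positive log2 ratio (ligands over DMSO), or 5 of 8 after quantile normalization, where Pgd and Tkt were both at -0.02. Their median log2 ratio was 0.26, against -0.03 over all measured genes and -0.03 over the 3245 genes at least as bright as the dimmest member. Of the 8, only Idh1 passed 1.5-fold upward and none passed it downward, while 6.36% of all measured genes passed it upward and 4.77% downward. None of the 8 passed 2-fold, which 1.67% of all measured genes did upward and 0.776% downward. With 1 of 8 members past 1.5-fold, the count says nothing particular about the members.

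**Figure D1:**
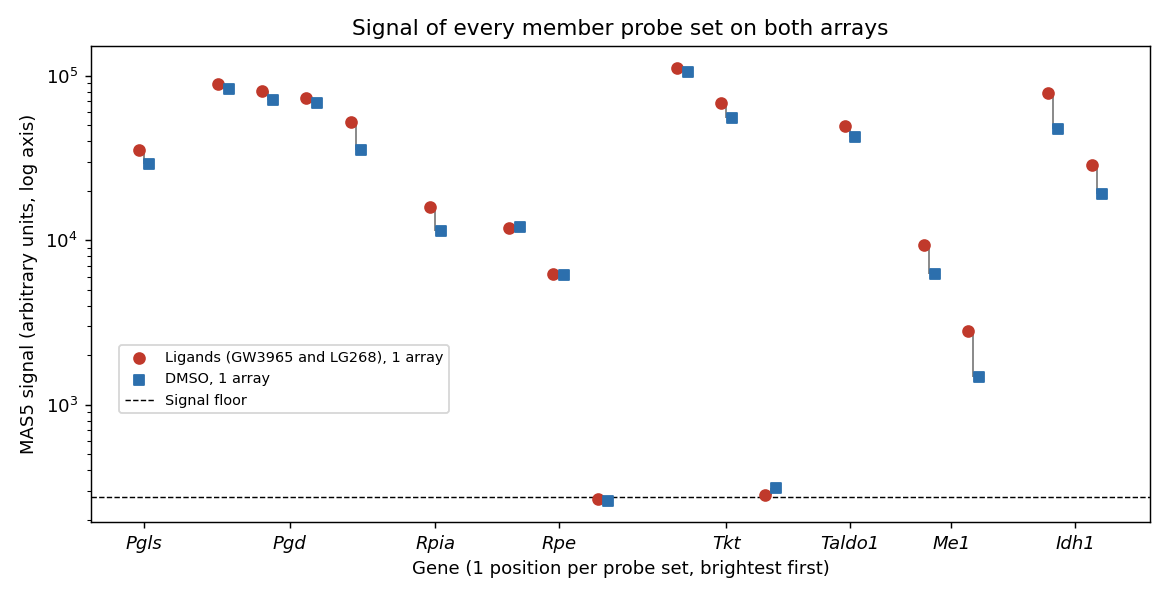
MAS5 signal (log axis) of the 17 member probe sets on the ligand array (red circles) and the DMSO array (blue squares), grouped by gene with the brightest probe set first; the dashed line is the signal floor. The red circles stand clearly above the blue squares for both probe sets of Idh1 and of Me1, and also for the dimmest probe set of Pgd. A probe set each of Rpe and Tkt lies at the floor.

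In the oxidative branch, Pgls, the lactonase that opens the ring of 6-phosphogluconolactone, had a signal of 35518 with the ligands and 28984 with DMSO from its single probe set. It was higher with the ligands, at a log2 ratio of 0.29 or 1.8 times the SD of a probe set of that brightness. Of all measured genes, 82.6% had a lower ratio.

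Pgd, 6-phosphogluconate dehydrogenase, performs the second NADPH-yielding step and had 4 probe sets. The brightest read 88971 with the ligands and 82524 with DMSO, a log2 ratio of 0.11. The next read 80164 with the ligands and 70712 with DMSO (0.18), and another 73125 with the ligands and 68133 with DMSO (0.10). These 3 probe sets end in _x_at, a suffix for probes that may also bind other transcripts, and their differences were near or below the SD of 0.17. The remaining one, without that suffix, read 52473 with the ligands and 35255 with DMSO, a log2 ratio of 0.57 or 3.5 times the SD. On the deposited scale every probe set of Pgd was thus higher with the ligands (the brightest was at -0.02 on the log2 scale after quantile normalization), but by 1.07-fold to 1.49-fold depending on the probe set, and the size of the Pgd difference was not fixed by these arrays.

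In the non-oxidative branch, Rpia, the isomerase that turns ribulose 5-phosphate into ribose 5-phosphate for nucleotide synthesis, had the largest ratio. Its only probe set read 15806 with the ligands and 11391 with DMSO, a log2 ratio of 0.47 or 2.8 times the SD. Of all measured genes 90.7% had a lower ratio, and so did 94.6% of the 1108 genes of similar signal.

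Rpe, the epimerase that acts on the same substrate to give xylulose 5-phosphate, was nearly level between the arrays. Its brightest probe set read 11793 with the ligands and 12093 with DMSO, and a second read 6242 with the ligands and 6153 with DMSO. The log2 ratios were -0.04 and 0.02, both within the SD of 0.17. Its dimmest probe set was below the floor on both arrays, at 268.6 with the ligands and 261.4 with DMSO.

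Tkt, transketolase, moves a 2-carbon unit between sugar phosphates with thiamine diphosphate as its cofactor. Its brightest probe set, one of the _x_at kind, read 111960 with the ligands and 105498 with DMSO, a log2 ratio of 0.09. A second read 67982 with the ligands and 55095 with DMSO, a log2 ratio of 0.30 or 1.8 times the SD. The dimmest lay just above the floor, at 282.4 with the ligands and 309.7 with DMSO, a log2 ratio of -0.13 within the SD of 0.40 for such dim probe sets. The probe sets of Tkt thus differed in sign, although the only negative one was just above the floor. Taldo1, transaldolase, which moves a 3-carbon unit, read 49528 with the ligands and 42323 with DMSO from its single probe set. That was a log2 ratio of 0.23, higher with the ligands by 1.4 times the SD.

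**Figure D2:**
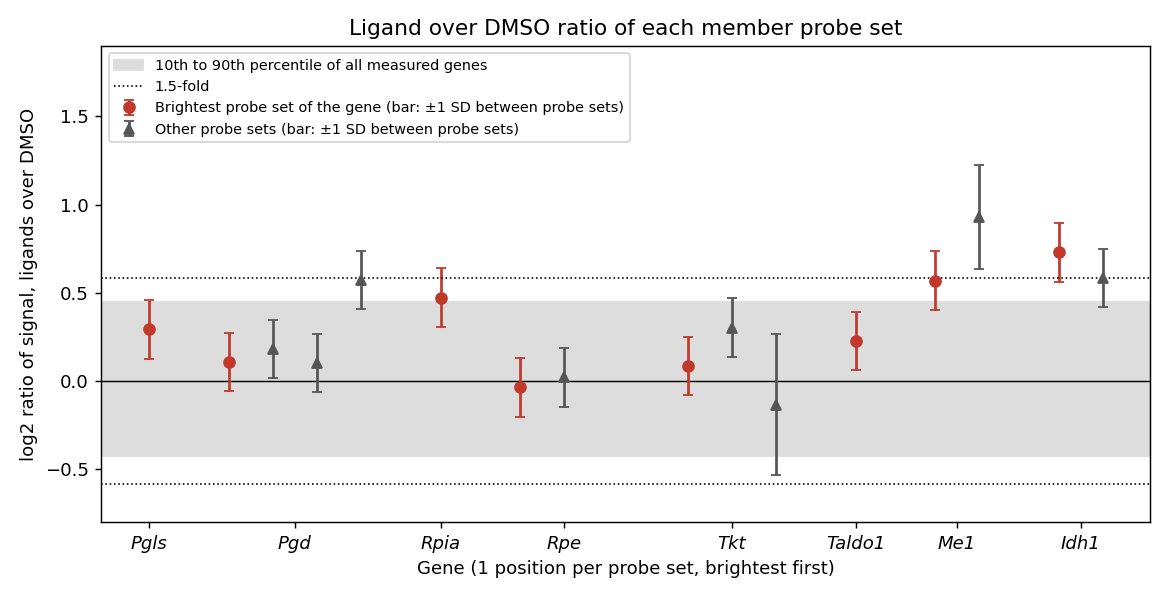
Log2 ratio of signal (ligands over DMSO) of the 16 measured member probe sets, with the brightest of each gene as a red circle and the others as grey triangles. Bars are 1 SD, as estimated from pairs of probe sets of 1 gene, binned by the signal of the dimmer one. Both Me1 and both Idh1 probe sets, the Rpia probe set and 1 of the 4 Pgd probe sets lie above the grey band, which spans the 10th to the 90th percentile of all measured genes (-0.43 to 0.45).

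Outside the pathway, Me1, the cytosolic malic enzyme, which turns malate into pyruvate and yields NADPH, was higher by both of its probe sets. The brighter one read 9295 with the ligands and 6264 with DMSO, a log2 ratio of 0.57 or 3.4 times the SD. The dimmer one read 2820 with the ligands and 1479 with DMSO, a log2 ratio of 0.93, or 1.91-fold and 3.2 times the SD of 0.29 at its brightness. That was the largest ratio among the 17 probe sets. By the brighter probe set, 93.3% of all measured genes and 96.5% of the 1107 of similar signal had a lower ratio than Me1.

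Idh1, the cytosolic NADP-dependent isocitrate dehydrogenase, was likewise higher by both probe sets. The brighter one read 78874 with the ligands and 47537 with DMSO, a log2 ratio of 0.73 or 4.4 times the SD. The other read 28639 with the ligands and 19106 with DMSO, a log2 ratio of 0.5839, just short of the 0.5850 that equals 1.5-fold. Both probe sets end in _s_at, a suffix for probes shared by several transcripts, so signal from a related transcript cannot be told apart from that of Idh1. By the brighter one, 96.0% of all measured genes had a lower ratio, the highest share among the 8 members, and so did 97.7% of the 1108 of similar signal.

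**Figure D3:**
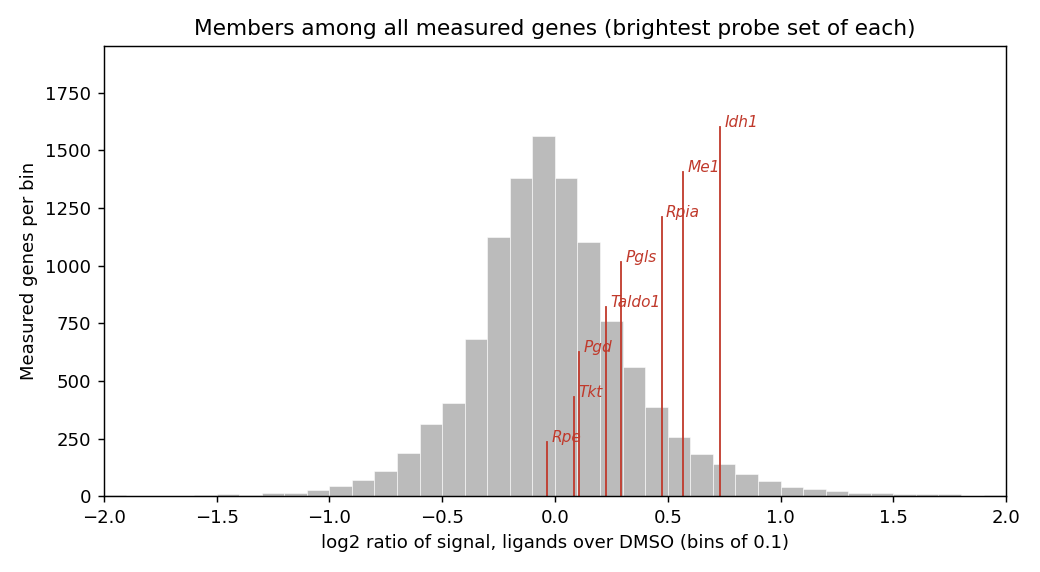
Number of measured genes per bin of 0.1 in log2 ratio (ligands over DMSO), with the brightest probe set of each of the 8 members as a red line whose height only separates the labels; 32 genes lie beyond the axis. The members run from Rpe at -0.04, near the peak, to Me1 at 0.57 and Idh1 at 0.73 on the right shoulder.

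By role, the median log2 ratio was 0.65 for the 2 enzymes outside the pathway, 0.20 for the 2 analysed enzymes of the oxidative branch and 0.16 for the 4 of the non-oxidative branch. After quantile normalization these were 0.62, 0.12 and 0.09. Without _s_at and _x_at probe sets they were 0.57 (Me1 alone), 0.43 and 0.27, so the size of the gap depended on the probe sets used. Among the 1108 brightest measured genes, which include Pgls, Pgd, Tkt, Taldo1 and Idh1, the median log2 ratio was -0.003. Rpia, Rpe and Me1 were dimmer. Genes of similar signal had a median of -0.05 for Rpia and Rpe and of -0.03 for Me1.

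Among related isoenzymes, Me2 had a ratio near that of Me1, and Idh2 and H6pd had ratios near 0. The mitochondrial Idh2 read 30307 with the ligands and 31194 with DMSO, a log2 ratio of -0.04, and its other measured probe set was at -0.79. The mitochondrial Me2, which prefers NAD, read 32362 with the ligands and 22355 with DMSO, with a log2 ratio of 0.53, and the range over its 4 probe sets was 0.06 to 0.53. H6pd, the hexose-6-phosphate dehydrogenase of the endoplasmic reticulum, read 1300.1 with the ligands and 1223 with DMSO, a log2 ratio of 0.09. Me3, G6pd2, Tktl1 and Tktl2 were below the floor on both arrays, so no ratio was given for them.

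Other genes at the edges of the pathway had ratios centred near 0. Of 15 listed, 11 were measured, 1 passed 1.5-fold upward and none downward, with a median log2 ratio of 0.09. The exception was Idnk, the gluconokinase that makes 6-phosphogluconate from gluconate, which read 4098 with the ligands and 2006 with DMSO, 2.04-fold higher from 1 probe set. Other NADPH-producing routes and NAD kinases had a median of -0.06, with 0 of 12 measured genes past 1.5-fold upward and 1 downward. That gene was Aldh1l2, the mitochondrial formyltetrahydrofolate dehydrogenase, which read 4078 with the ligands and 7480 with DMSO, a log2 ratio of -0.88.

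Among the carriers and enzymes that connect citrate, malate and pyruvate, 2 of 10 measured genes passed 1.5-fold upward and none downward, with a median log2 ratio of 0.13. Slc25a10, the mitochondrial dicarboxylate carrier, which exchanges malate for phosphate, read 10765 with the ligands and 5167 with DMSO, 2.08-fold higher, and its second probe set was at 1.00 on the log2 scale. Acly, which makes cytosolic acetyl-CoA from citrate, read 84241 with the ligands and 51489 with DMSO, 1.64-fold higher by its brightest probe set. Its 4 probe sets disagreed, with log2 ratios from 0.01 to 0.98, and with a mean over each gene's probe sets 1 gene of the list passed 1.5-fold in place of 2. Hexose entry and glycolysis genes, which share glucose 6-phosphate with the pathway, had a median of 0.12 by their brightest probe sets. With these, 0 of 16 passed 1.5-fold in either direction, and also 0 with a mean over each gene's probe sets. Their largest log2 ratios were 0.31 for the aldolase Aldoa and 0.27 for the lactate dehydrogenase Ldha. For Pfkl, chosen after its values were seen, the brightest probe set was at 0.25 and another was at 0.88.

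**Figure D4:**
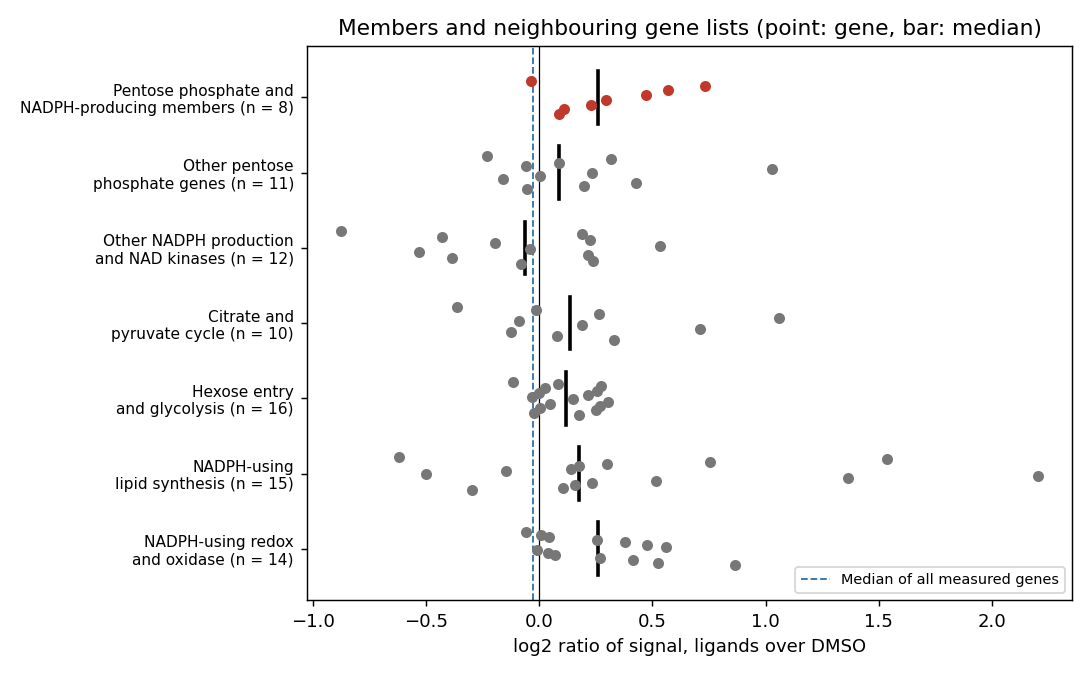
Log2 ratio (ligands over DMSO) of the brightest probe set of each measured gene, for the 8 members (red, top) and 6 neighbouring lists (grey), with a black bar at each median; the dashed line is the median of all measured genes. The members' median of 0.26 equals that of the redox and oxidase list, and the widest spread is that of lipid synthesis, from -0.62 to 2.20. The lipid synthesis list, labelled NADPH-using, includes desaturases, and its highest value is that of the desaturase Scd1.

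On the side of NADPH use, the lipid synthesis list was chosen for steps that draw on NADPH directly or through reductases. The list also counts desaturases, Scd1 and Fads2 among them. Which cofactor a desaturase draws on is not shown by these arrays, so their ratios are not read as those of NADPH-using steps. Of the neighbouring lists, the lipid synthesis list held both the highest ratios and some negative ones. Of 15 measured genes, 4 passed 1.5-fold upward and 1 downward, with a median log2 ratio of 0.17. Scd1 (124111 with the ligands and 26950 with DMSO), Fasn (59695 with the ligands and 20567 with DMSO) and Tm7sf2 (5734 with the ligands and 2228 with DMSO) were 4.61-fold, 2.90-fold and 2.57-fold higher, and the delta-6 desaturase Fads2 was 1.69-fold higher by the brightest of 3 probe sets, which ranged from 0.29 to 0.87 on the log2 scale. The squalene synthase Fdft1 was at -0.62. The ratios of Me1 and Idh1 were thus smaller than that of Fasn, at 0.57 and 0.73 against 1.54 on the log2 scale. Redox and oxidase genes had a median of 0.26, with 1 of 14 measured genes past 1.5-fold upward and none downward. It was the haem oxygenase Hmox1, which read 12833 with the ligands and 7051 with DMSO, 1.82-fold higher.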

How the data were processed

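Total RNA labelled with biotin, per the labels' protocols, was measured on 1 array for the ligands and 1 for DMSO. The deposited values are linear intensities, 1 per probe set. Per the submitters' processing notes, MAS5 made them, in a version the sources used here do not give. MAS5 scaling gives all arrays the same trimmed mean, so ratios are relative to the bulk of the array. Values were used as deposited.

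Of 45101 probe sets, 34945 had 1 gene symbol in the platform annotation, 932 had several, 9160 had none and 64 were controls. Of those with 1 symbol, 34741 were matched by gene identifier to GRCm38.p6 and took its symbol, whether or not it differed. Signals were floored at the median of all non-control probe sets (276.4), and log2 ratios of ligands over DMSO were taken. Each gene was represented by the probe set with the highest mean log2 signal. The SD for 1 probe set came from the difference of a gene's 2 brightest probe sets divided by the square root of 2. It was taken in 4 bins by the signal of the dimmer of the 2. Genes of similar signal are those in the same one of 10 bins. No p-value was computed with 1 array per group, and the number of arrays limits the precision.

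The members and gene lists were chosen with earlier results of these data known. All members were named; from each other list, up to 5 measured genes at least 1.5-fold apart were named, or the 2 with the largest log2 ratios where none was, plus isoenzymes of members and the ligand response genes. Other genes named are said to be chosen after their values were seen. Genes of similar pattern were not sought, since 2 arrays give 1 ratio per gene. The ratio procedure was tested on simulated data. Alternatives were other floors, no floor with log2(signal + 32), quantile normalization, centring, the mean over probe sets, leaving out _s_at and _x_at probe sets, and requiring a signal above the floor on both arrays. Python 3.11.15, numpy 2.4.6, pandas 2.3.3 and matplotlib 3.10.9 were used.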

Additional observations from a re-analysis of the deposited data

How the results depend on the processing

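Under 8 alternatives, the count of members at least 1.5-fold higher, 1 as reported, was 2 when ratios were centred on the median of all measured genes and 2 with a mean over each gene's probe sets, and Me1 was then counted beside Idh1. It was 0 without _s_at and _x_at probe sets, because Idh1 has no other kind and left 7 members measured. The counts at least 1.5-fold lower and at least 2-fold higher or lower were 0 under each alternative. The median log2 ratio of the members ranged from 0.23 with quantile normalization to 0.30 without _s_at and _x_at probe sets. Without those probe sets the log2 ratio of Pgd was 0.57, against 0.11 as reported. Pgd and Tkt changed sign under quantile normalization, both to -0.02, and no other member changed sign under any of the 8. Both alternative floors left all 8 members measured. Among the neighbouring lists, a mean over each gene's probe sets gave 1 citrate and pyruvate gene at least 1.5-fold higher in place of 2. It gave 2 genes of other NADPH routes at least 1.5-fold lower in place of 1. For lipid synthesis it gave 5 genes at least 1.5-fold higher in place of 4, and 0 lower in place of 1. The lower floor gave 2 genes at least 1.5-fold higher and 2 lower at the edges of the pathway in place of 1 and 0, 2 genes of other NADPH routes at least 1.5-fold lower in place of 1, and 2 redox genes at least 1.5-fold higher in place of 1. Centring also gave 2 redox genes at least 1.5-fold higher. No paired analysis was possible because each group had 1 array. The ratios of Rpe, Tkt and Pgd by their brightest probe sets were within the error between probe sets, so no difference was detectable from them.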

Other observations

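Of 6 measured folate-linked genes in the list of other NADPH routes, 4 had negative and 2 positive log2 ratios (ligands over DMSO). How far each of these enzymes yields NADPH was not tested, so the count does not describe NADPH production. Besides Aldh1l2, the following were chosen after their values were seen. Mthfd2, the mitochondrial methylenetetrahydrofolate dehydrogenase, read 30471 with the ligands and 44104 with DMSO, a log2 ratio of -0.53, and its 2 probe sets ranged from -0.66 to -0.53. Mthfd1, its cytosolic counterpart, read 14198 with the ligands and 19142 with DMSO, at -0.43, with 3 probe sets from -0.61 to -0.32. Nadk, the cytosolic NAD kinase that makes NADP, read 20902 with the ligands and 27291 with DMSO, at -0.38, but its second probe set was at -0.01.

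Among redox genes, also chosen after their values were seen, the phagocyte oxidase subunits differed from each other. Ncf1, the organiser subunit, was at 0.52 with 3 probe sets from 0.48 to 0.65, and Cyba, the smaller membrane subunit, was at 0.41. Cybb, the catalytic subunit, was at 0.07 with 3 probe sets from -0.24 to 0.22, and Ncf4 was at 0.04.

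The lower ratios of the Pgd probe sets that end in _x_at can be set beside other genes. Over 792 genes with an _x_at and another probe set above the floor on both arrays, the _x_at probe sets had the lower log2 ratio in 61.6% of genes, with a median difference of -0.07 and an SD of 0.38 between genes. For Pgd the difference was -0.44 and for Tkt 0.001. The Tkt value sets the _x_at probe set, at 0.09, against the mean of a bright one at 0.30 and one just above the floor at -0.13. Against the bright one alone, the _x_at probe set of Tkt was also the lower. What the _x_at probes of Pgd bind besides Pgd was not tested.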
